A study of Mus musculus with 12 samples.

Results

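Small RNA was sequenced from the quadriceps, the large extensor muscle of the thigh, of wild-type C57BL/6J mice, and the 3 libraries of postnatal day 90 (P90, adult) were compared with the 3 libraries of postnatal day 14 (P14, before weaning). The series holds 12 libraries, 3 at each of the ages P1, P5, P14 and P90, and the 6 libraries of the last interval were all used here. All mice were of this strain, the labels name no altered allele and no treatment, and age was the only labelled difference. The table lists 1966 mature miRNAs, of which 809 had enough counts to be tested. RNA came from whole muscle, in which fewer cells of a type and less of a miRNA per cell cannot be told apart.

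A miRNA is a short RNA cut from a hairpin precursor and loaded into an Argonaute protein. There it pairs, mainly through bases 2 to 8 from its 5′ end (the seed), with target mRNAs and lowers their output. The 5p and 3p arms of a hairpin can each give a mature miRNA, and hairpins that lie close together are often cut from the same primary transcript. Between the second postnatal week and adulthood mouse limb muscle gains most of its mass, its fibres take on adult myosins, and its satellite cells, the stem cells of the fibre, largely stop dividing.

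The sequences on which the main results turn are given here as RefSeq lists them for GRCm38.p6, 5′ to 3′, with the seed in capitals. RefSeq gave a mature sequence for 688 of the 809 miRNAs tested (85.0%). The 3 guide strands of the miR-29 family, which rose most among abundant miRNAs, share the seed AGCACCA.
miR-29a-3p: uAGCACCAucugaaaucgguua
miR-29b-3p: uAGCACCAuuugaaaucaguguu
miR-29c-3p: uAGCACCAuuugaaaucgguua
The next 3 rose less steeply, and the start of miR-101b-3p lies 1 base further upstream than that of miR-101a-3p, so that their seeds are offset.
miR-22-3p: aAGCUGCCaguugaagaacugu
miR-101a-3p: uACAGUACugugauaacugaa
miR-101b-3p: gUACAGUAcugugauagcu
The following 4 fell steeply. They are the Igf2 intron miRNA, a pair from the Dlk1-Dio3 region and the muscle miRNA miR-206.
miR-483-3p: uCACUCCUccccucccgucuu
miR-431-5p: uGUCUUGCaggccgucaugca
miR-434-3p: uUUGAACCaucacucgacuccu
miR-206-3p: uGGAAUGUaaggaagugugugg
The last 2 sets show miRNAs of a shared seed that did not change alike: let-7 members, and miR-351-5p beside miR-125b-5p.
let-7f-5p: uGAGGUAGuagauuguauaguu
let-7g-5p: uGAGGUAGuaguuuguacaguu
let-7a-5p: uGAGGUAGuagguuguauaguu
let-7e-5p: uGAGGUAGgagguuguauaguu
miR-351-5p: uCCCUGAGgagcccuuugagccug
miR-125b-5p: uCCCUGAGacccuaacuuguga

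The adult libraries were dominated by a single muscle miRNA. miR-1a-3p, the most abundant miRNA of differentiated striated muscle, took 22.69%, 16.05% and 22.80% of all miRNA counts in the P14 libraries and 53.0%, 54.5% and 56.8% in the P90 libraries. Every P90 library lay above every P14 library (20.5% ± 3.87 against 54.8% ± 1.93, SD, n = 3 each; 2-sided exact permutation test, p = 0.1, the smallest that 20 splits allow). The 5 most abundant miRNAs of a library together took 41.5% ± 5.08 of the counts at P14 and 87.8% ± 1.98 at P90 (SD, n = 3), and the inverse Simpson index, which counts how many equally abundant miRNAs would give the same concentration of counts, was 16.2 ± 4.90 and 2.66 ± 0.180 (exact permutation p = 0.1 for each). P90 libraries held 43776307 to 53126984 counts and P14 libraries 20363495 to 24046074, yet 685 to 743 miRNAs had at least 10 counts at P14 and 551 to 581 at P90. The counting appears not to have separated strands, a setting that is not stated: miR-1b-5p lies opposite miR-1a-3p, its counts were 0.502 to 0.505 of those of miR-1a-3p in all 6 libraries, and it is treated as uncertain. Without the less abundant partner of each of the 23 antisense hairpin pairs, the miR-1a-3p share was 18.13% to 26.63% at P14 and 73.0% to 80.1% at P90.

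**Figure D1:**
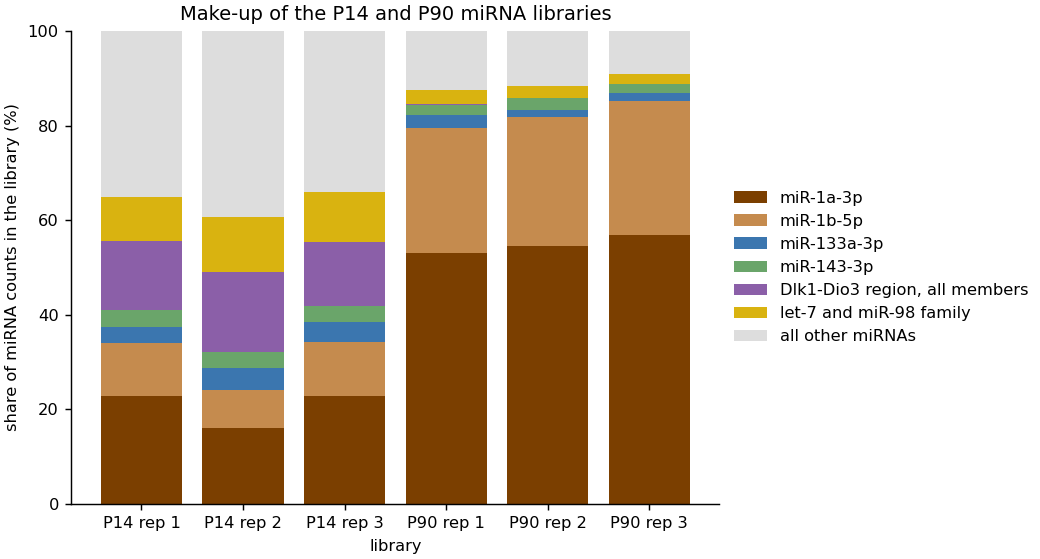
Stacked bars give the share of miRNA counts, in %, of named miRNAs and groups in each of the 3 P14 and 3 P90 libraries. miR-1a-3p takes 16.05% to 22.80% at P14 and 53.0% to 56.8% at P90, and the band of the Dlk1-Dio3 region, 13.460% or more in each P14 library, is too thin to see at P90 (0.095% to 0.149%).

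The direction of a small change depended on how libraries were scaled. With TMM scaling, edgeR called 478 of the 809 miRNAs (59.1% called; adjusted p below 0.05), 181 higher at P90 (22.4%) and the rest lower (36.7%), and the median log2 fold change of all miRNAs tested was -0.55. That median was -0.18 with RLE factors, 0.99 with upper-quartile factors and -2.77 with library totals, and the split of the calls went from 47.2% of the miRNAs tested higher and 19.7% lower (upper quartile) to 2.22% higher and 77.6% lower (library totals). The 3 libraries of an age lay wholly to one side of the other 3 for 61.2% of the miRNAs tested. The calls made in the same direction under all 4 scalings were therefore taken as the core of the comparison: 18 miRNAs were higher (2.22%) and 159 were lower (19.7%). These stable sets lost no call when any of the 6 libraries was left out or when DESeq2 was used. All 18, and all but 4 of the 159, were still called in their direction once a trend over GC content was taken out. miRNAs with no RefSeq sequence, among them miR-1a-3p and miR-1b-5p, got no GC adjustment, so that refit did not test their calls. Antisense partners, whose counts can match, are included in both sets. Without the less abundant partners 16 of the 18 and 153 of the 159 were left, all still called in their direction. The sets were chosen from fits to the same libraries, so that these refits are not an independent check. All 3 P90 libraries held 3 counts or fewer for 112 of the miRNAs tested (13.8%), 49 of them called lower, so that their fitted fold changes are not used as sizes.

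The base composition of the miRNAs moved with age. The median GC content was 40.9% among miRNAs called higher, 52.2% among those called lower and 50% over all 688 with a sequence. Within a library, the level of a miRNA relative to its mean over libraries changed by 0.378 to 0.562 log2 units per 10 points of GC at P14 and by -0.595 to -0.382 at P90, against -0.011 to 0.076 at P1 and P5. The part of this trend in single miRNAs was not tested, and values with the trend removed are given beside some of the results that they change. Other sizes moved as well. With the trend removed miR-101a-3p was at 1.96 (3.34 with it), miR-101b-3p at 2.29 (2.84) and miR-21a-5p at 1.09 (2.17). Likewise miR-351-5p was at -3.73 (-5.10), miR-431-5p at -6.06 (-6.92) and miR-483-3p at -6.21 (-7.52). The falls of miR-206-3p, at -4.15 (-3.91), and miR-434-3p, at -5.04 (-4.82), were larger.

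**Figure D2:**
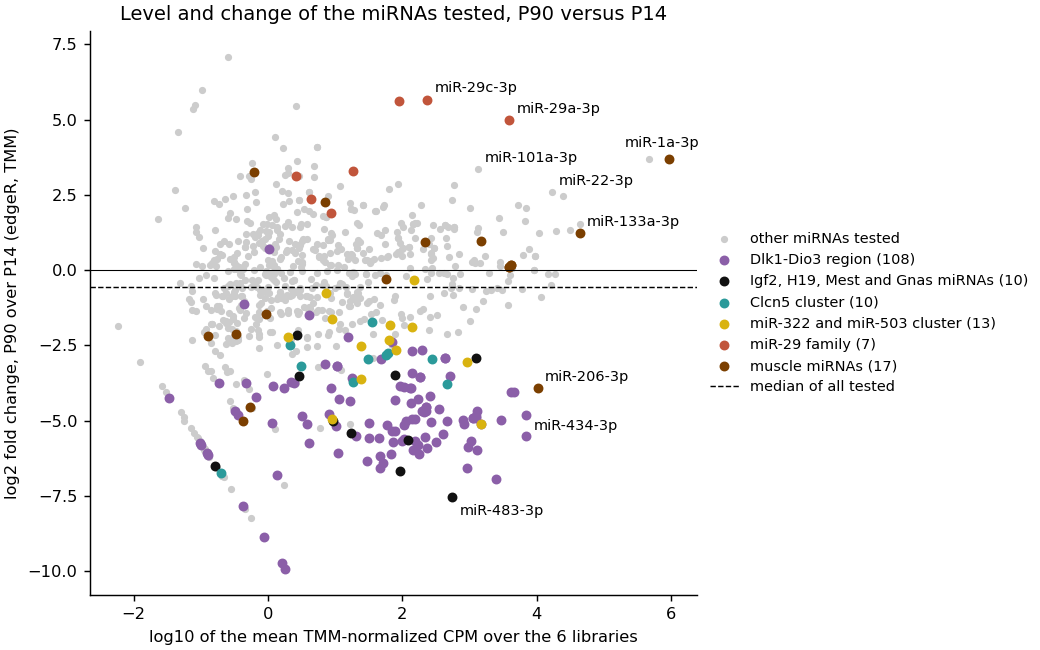
Each point is a miRNA tested, by the log10 of its mean TMM-normalized CPM (counts scaled to the same nominal library total) over the 6 libraries (horizontal) and its log2 fold change, P90 over P14 (vertical); 4 miRNAs with no count in these 6 libraries are not drawn. Points of the Dlk1-Dio3 region lie at a median of -4.92 and the 3 guide strands of miR-29 between 4.98 and 5.66, while the median of all tested is -0.55.

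The miR-29 family, known for repressing collagens and other matrix genes, rose most among abundant miRNAs. miR-29a-3p stood at 232, 218 and 270 normalized CPM in the P14 libraries and at 5817, 8496 and 8427 in the P90 libraries. Its log2 fold change was 4.98 ± 0.23 (SE; edgeR adjusted p = 2.4e-11), a 31.6-fold difference. miR-29c-3p went from 10.19, 6.95 and 10.07 to 324.6, 542.2 and 506.3 normalized CPM (log2 fold change 5.66 ± 0.25, edgeR adjusted p = 1.1e-11). miR-29b-3p went from 3.00, 3.15 and 4.44 to 130.2, 204.6 and 188.9 (5.63 ± 0.24, edgeR adjusted p = 7.2e-12). No P14 library reached a P90 library for any of the 3, and at P1 and P5 miR-29a-3p was at 145.4 and 113 normalized CPM, so that nearly the whole postnatal rise fell in this interval. All 7 members tested were called higher, 4 of them under every scaling, and the passenger strands rose less (1.89 to 3.28 on the log2 scale). The ratio of miR-29c-3p to miR-29a-3p within a library, which no scaling touches, was 0.032 to 0.044 at P14 and 0.056 to 0.064 at P90. The hairpins lie in 2 pairs, Mir29a and Mir29b-1 at chr6:31062660-31062747 and chr6:31063023-31063093 in an intron of the lncRNA Gm67885, and Mir29b-2 and Mir29c at chr1:195037040-195037120 and chr1:195037547-195037634 in an exon of the lncRNA A330023F24Rik (positions in GRCm38, hosts from GENCODE in GRCm39). With the GC trend removed the 3 guide strands stood at 4.32 to 4.56, 4.38 for miR-29b-3p.

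miR-22-3p, which is abundant in heart and limb muscle, was higher under every scaling. It stood at 5029, 4376 and 4892 normalized CPM at P14 and at 25410, 28521 and 32178 at P90 (log2 fold change 2.59 ± 0.13, edgeR adjusted p = 6.2e-11), after 1175 and 1714 at P1 and P5. Its hairpin lies at chr11:75463716-75463810 in an exon of Mir22hg. miR-101a-3p, known for repressing the histone methyltransferase gene Ezh2, went from 270, 179 and 260 to 1507, 2691 and 3008 normalized CPM (3.34 ± 0.24, edgeR adjusted p = 4.1e-09), and miR-101b-3p from a mean of 145.97 to 1043 (2.84 ± 0.21, edgeR adjusted p = 6.4e-09). They come from different chromosomes, chr4:101346945-101347027 and chr19:29135279-29135375. miR-101a-3p had been higher at P1 and P5 (463 and 607) than at P14, unlike miR-22-3p. miR-1843a-5p, of a Dcaf5 intron, went from 21.1 ± 3.37 to 153.8 ± 26.998 normalized CPM (SD, n = 3). Only 9 of the 18 stable risers reached a mean of 50 normalized CPM, and 2 of the 18 held 3 counts or fewer in every P14 library.

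**Figure D3:**
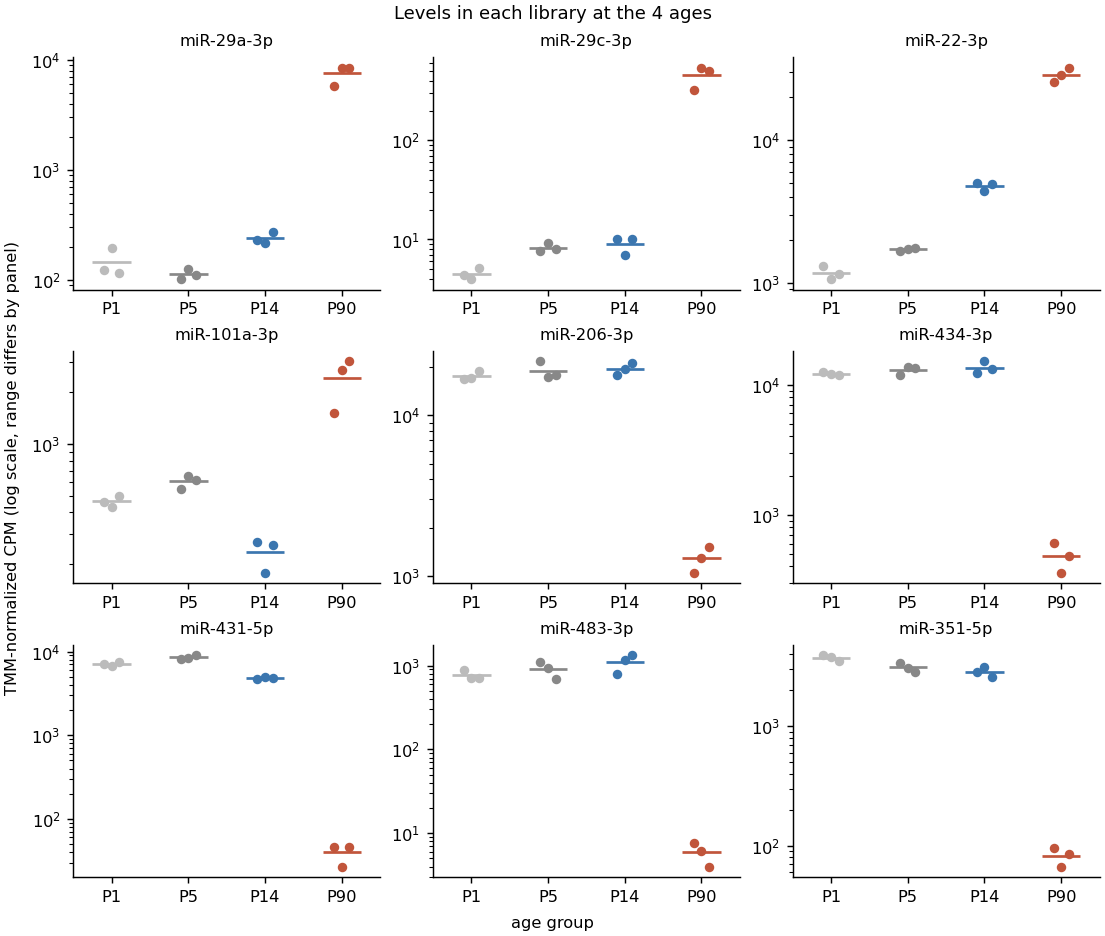
Points are the TMM-normalized CPM of 9 miRNAs in each of the 12 libraries, on log axes that differ by panel, with a bar at the mean of each age group (n = 3). miR-29a-3p rises from a mean of 240 at P14 to 7580 at P90, and miR-431-5p falls from 4813 to 39.7, with no overlap between the P14 and P90 libraries in any of the 9 panels.

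The miRNAs of the Dlk1-Dio3 region, an imprinted stretch of chromosome 12 whose miRNAs are made from the maternal copy together with the lncRNAs Meg3, Rian and Mirg, fell almost as a block. Of 111 listed, 108 were tested, 104 were called lower and 0 higher, and 100 were lower under every scaling, which is 62.9% of all 159 stable falls and 92.6% of the members tested. Their median log2 fold change was -4.92 beside -0.55 for all miRNAs (-3.38 with upper-quartile factors, -7.03 with library totals, -4.66 once the GC trend was taken out, and -4.64 when the 16 members at 3 counts or fewer were set at the bound those counts allow). Together they took 14.461%, 16.996% and 13.460% of the counts in the P14 libraries and 0.149%, 0.095% and 0.107% in the P90 libraries. Leaving out the less abundant antisense partners, 98 of 102 were lower.

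The most abundant of them at P14 was miR-127-3p, which lies opposite the retrotransposon-derived gene Rtl1 and is perfectly matched to it. It stood at 13103, 15324 and 12325 normalized CPM at P14 and at 351.3, 205.5 and 338.9 at P90 (log2 fold change -5.51 ± 0.21, edgeR adjusted p = 3e-12). miR-434-3p, at chr12:109594506-109594599, stood at 12211, 15070 and 13223 normalized CPM at P14 and at 603, 358 and 478 at P90 (-4.82 ± 0.19, edgeR adjusted p = 3.9e-12). miR-431-5p, at chr12:109590447-109590537, stood at 4645, 4982 and 4812 and then at 45.91, 26.99 and 46.31 (-6.92 ± 0.21, edgeR adjusted p = 6.1e-13), a 121-fold difference. miR-433-3p (1823 to 19.3), miR-487b-3p (2549 to 40.9), miR-668-3p (346 to 4.94), miR-412-5p (286 to 4.62), miR-540-3p (454.6 to 7.61), miR-493-3p (131 to 1.97) and miR-770-3p (103 to 1.22, means of normalized CPM) fell by 5.91 to 6.56 on the log2 scale. miR-434-3p had held its level before, with means of 12153 at P1 and 12964 at P5.

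Along the chromosome the fall covered every group of hairpins. In the group that includes Rtl1, chr12:109563692-109595397, all 28 miRNAs tested were called lower, with a median of -5.53. In the short group of miR-341, miR-1188 and miR-370, chr12:109611500-109618336, 6 of 6 were lower with a median of -5.28. In the Mirg group, chr12:109709060-109747960, 70 of 75 were lower with a median of -4.69. miR-1188-5p had 83 to 175 counts at P14 and none at P90, which makes it at least 18.6-fold lower (against 3 counts per library). Of the 4 listed members not called, 2 held 3 counts or fewer in every adult library, miR-539-3p stood at -1.13, and miR-654-3p, with 16 to 31 counts per library, stood at 0.71 ± 0.47 (edgeR adjusted p = 0.21).

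The miRNAs of Igf2, H19, Mest and the Gnas locus, which are also imprinted, fell too. All 10 listed members from Igf2, H19, Mest and the Gnas locus were called lower, 8 under every scaling. Their median log2 fold change was -5.21 (-4.26 with the member at the floor set at its bound, and -4.27 with the GC trend removed). miR-483-3p, made from an intron of the fetal growth factor gene Igf2 at chr7:142654924-142654996, stood at 801, 1173 and 1333 normalized CPM at P14 and at 7.67, 6.15 and 3.998 at P90 (-7.52 ± 0.31, edgeR adjusted p = 5.2e-12), a 184-fold difference, and miR-483-5p went from 182.1 ± 18.2 to 1.77 ± 0.686 (SD, n = 3). miR-298-5p, of the Gnas locus, stood at 245, 247 and 215 and then at 3.92, 2.86 and 7.66. miR-335-5p, in an intron of Mest at chr6:30741299-30741396, fell less in this fit, from 2372, 1583 and 2677 to 256, 286 and 345 (-2.90 ± 0.19, edgeR adjusted p = 1.2e-09), and it had already come down from means of 9433 at P1 and 9526 at P5. With the GC trend removed miR-335-5p stood at -4.53, beside -4.01 for miR-298-5p and -6.21 for miR-483-3p. miR-675-5p, cut from the lncRNA H19, went from 3.52 to 7.90 normalized CPM at P14 to 0.416 to 0.530 at P90. Members of this list and of the Dlk1-Dio3 region together made up 108 of the 159 stable falls (67.9%).

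A pair of clusters on the X chromosome fell by less. In the Clcn5 cluster, chrX:7237683-7248497, 10 of 10 were called lower, 8 under every scaling, with a median of -2.96. Its most abundant member, miR-501-3p, stood at 858, 984 and 753 normalized CPM at P14 and at 75.6, 53.4 and 59.1 at P90 (-3.79 ± 0.17, edgeR adjusted p = 1.5e-11), and miR-532-5p at 455.03 to 516.89 and then at 51.2 to 79.9. In the miR-322 and miR-503 cluster, whose members are known for lowering cell-cycle regulators such as Cdc25a, 12 of 13 were called lower and 7 under every scaling, with a median of -2.32. miR-351-5p, at chrX:53053255-53053353, went from 2824, 3126 and 2552 to 96.2, 67.2 and 85.0 (-5.10 ± 0.17, edgeR adjusted p = 8.2e-13). The exception was miR-322-5p, at 189.6, 127.1 and 179.8 normalized CPM at P14 and 93.7, 153.6 and 147.4 at P90 (-0.33 ± 0.19, edgeR adjusted p = 0.15), and with the GC trend removed it too was called lower (-0.99, edgeR adjusted p = 0.00011). The libraries of the 2 ages overlapped for miR-322-5p and did not for its other arm, miR-322-3p, which went from 1585 to 1742 down to 190 to 217 normalized CPM.

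The muscle miRNAs parted. miR-206-3p, enriched in immature and regenerating fibres and at the neuromuscular junction, stood at 17693, 19321 and 21217 normalized CPM at P14 and at 1049, 1303 and 1513 at P90 (log2 fold change -3.91 ± 0.16, edgeR adjusted p = 6.2e-12), lower under every scaling, after a flat course at P1 and P5 (17648 and 18972). miR-133b-3p is made from the same transcript, Lincmd1 (Mir206 at chr1:20679010-20679082), and did not follow it: it stood at 147.1, 146.4 and 156.6 normalized CPM and then at 282, 201 and 380 (0.94 ± 0.20, edgeR adjusted p = 0.0009; -1.34 with library totals). The other arm of that hairpin, miR-133b-5p, was called lower under every scaling, but at very low levels (means of 1.04 and 0.035 normalized CPM). The ratio of miR-206-3p to miR-133b-3p within a library was 120.3, 131.9 and 135.5 at P14 and 3.72, 6.48 and 3.98 at P90, a 28.2-fold lower ratio (exact permutation p = 0.1, the smallest possible). The same ratio had been 64.4 to 120 at P1 and P5. The ratio of miR-206-3p to miR-1a-3p was 0.118 to 0.208 at P14 and 0.000658 to 0.000849 at P90.

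miR-1a-3p had a log2 fold change of 3.68 ± 0.24 (edgeR adjusted p = 1.3e-09) and was higher under every scaling, from 1.42 with library totals to 5.24 with upper-quartile factors. miR-133a-3p, cut from the same primary transcripts, stood at 21485, 26416 and 30116 normalized CPM at P14 and at 70142, 43273 and 68274 at P90 (1.22 ± 0.18, edgeR adjusted p = 2.9e-05; -1.02 with library totals). It therefore rose less than miR-1a-3p: its ratio to miR-1a-3p was 0.143 to 0.284 at P14 and 0.028 to 0.051 at P90. The myosin-gene miRNAs were low at both ages. miR-208b-3p, of an intron of the slow myosin gene Myh7, was at 0.944 to 2.12 and then at 0.416 to 0.595 (-1.45 ± 0.46, edgeR adjusted p = 0.012; 0.12 with upper-quartile factors), and miR-208a-3p, of the cardiac gene Myh6, had 0 counts in the P14 libraries and 0, 3 and 10 in the P90 libraries and was not tested. miR-499-5p, of the Myh7b intron, was at 46.9 to 73.0 and at 15.2 to 79.4 (-0.28 ± 0.40, edgeR adjusted p = 0.57; -1.70 with the GC trend removed, edgeR adjusted p = 0.00088). miR-486a-5p, of an Ank1 intron, was at 3614 to 3941 and at 3627 to 4856 (0.11 ± 0.18, edgeR adjusted p = 0.62), and its counts cannot be told apart from those of the antisense miR-486b-3p. Over the muscle list, 6 of 17 members tested were called higher and 4 lower, beside 22.4% higher and 36.7% lower of all miRNAs tested.

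**Figure D4:**
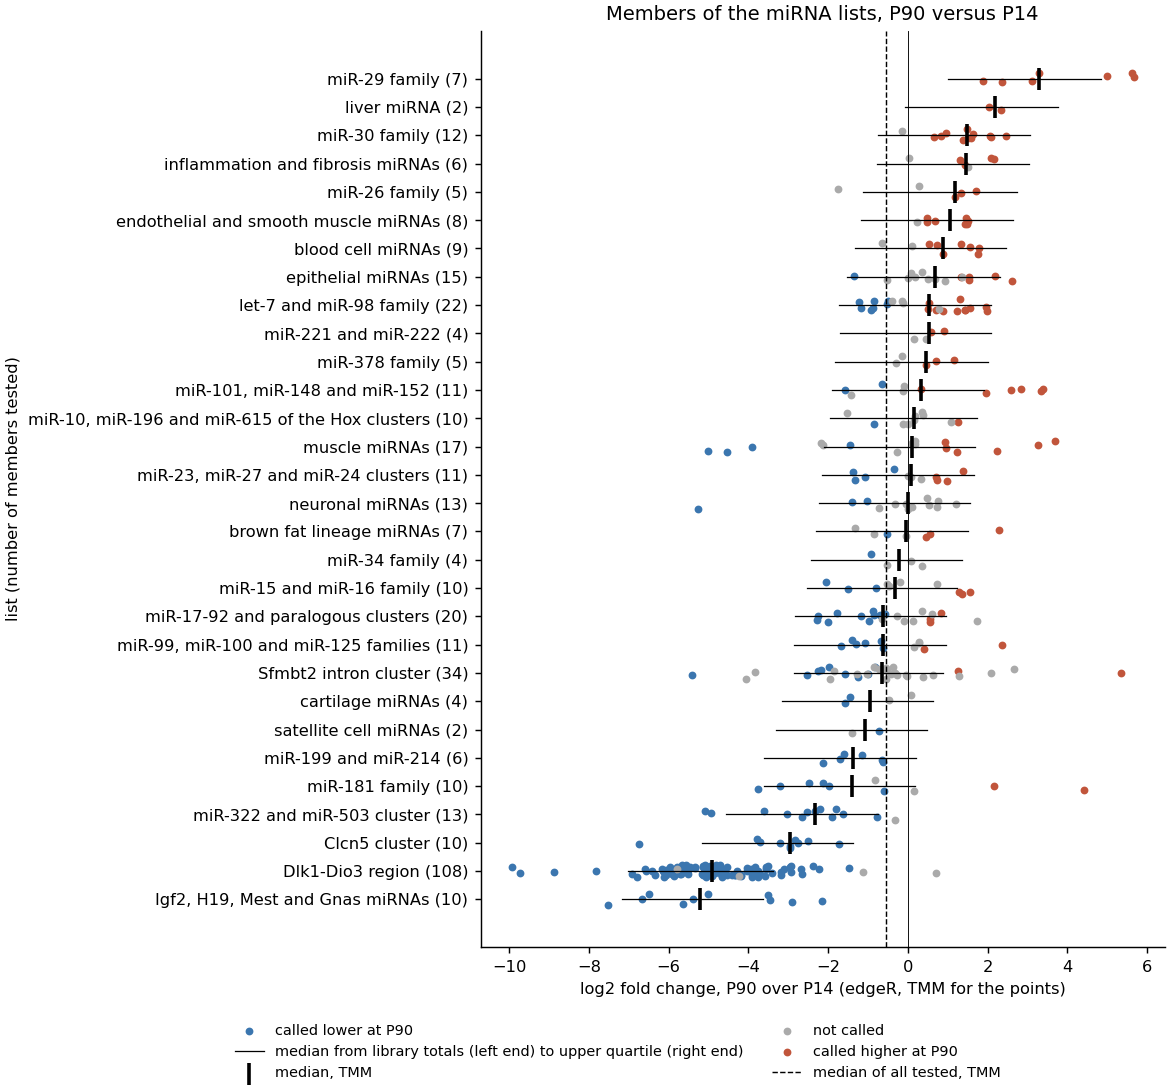
Each point is a miRNA tested, placed by its log2 fold change (P90 over P14, TMM) in the row of its list and coloured by its call; thick ticks are list medians with TMM and thin lines span the medians from library totals to upper-quartile factors. The Dlk1-Dio3 region (-4.92) and the Igf2, H19, Mest and Gnas list (-5.21) lie farthest to the left, and the miR-29 family (3.28) farthest to the right with its line wholly above 0.

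Among the broadly expressed families, miR-30 rose. 11 of its 12 members tested were called higher, with a median of 1.49 (-0.75 with library totals). miR-30a-5p stood at 8087, 6848 and 7919 normalized CPM at P14 and at 37147, 40097 and 49250 at P90 (2.47 ± 0.15, edgeR adjusted p = 6.2e-10; 0.21 and not called with library totals, edgeR adjusted p = 0.15), while miR-30d-5p was at 18024 to 20786 and at 15330 to 18836 (-0.14 ± 0.12, edgeR adjusted p = 0.31). The order of the pair turned over: the ratio of miR-30a-5p to miR-30d-5p was 0.329 to 0.439 at P14 and 1.97 to 2.70 at P90. miR-26a-5p, hosted by the Ctdspl and Ctdsp2 phosphatase genes, went from 16547 to 18612 up to 41613 to 46874 normalized CPM (1.34 ± 0.11, edgeR adjusted p = 3.3e-08; -0.89 with library totals). miR-378a-3p, hosted by the mitochondrial regulator gene Ppargc1b, was at 14480 to 15999 and at 12176 to 14891 (-0.14 ± 0.13, edgeR adjusted p = 0.37).

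The let-7 family, whose guide strands favour differentiated states, went both ways. Of 22 members tested, 11 were called higher and 7 lower, none of them under every scaling. Among the 9 guide strands of the seed GAGGUAG, let-7f-5p (1.30), let-7g-5p (1.22), let-7i-5p (0.51) and miR-98-5p (1.43) were called higher and let-7a-5p (-0.49), let-7b-5p (-1.17), let-7c-5p (-0.89) and let-7e-5p (-1.23) lower. let-7f-5p stood at 11585, 8892 and 12776 normalized CPM at P14 and at 24733, 25710 and 31231 at P90. The ratio of let-7f-5p to let-7a-5p was 0.457 to 0.713 at P14 and 1.63 to 2.36 at P90, against 1.38 to 1.64 at P1 and P5. GC content went with these values only in part. let-7f-5p has 31.8% GC and let-7b-5p 45.5%, but let-7g-5p (higher) and let-7a-5p (lower) both have 36.4%. Likewise let-7i-5p (higher), let-7c-5p and let-7e-5p (both lower) all have 40.9%. With library totals the 4 that rose were called lower. With the GC trend removed none of the 4 rises was called (-0.21 to 0.14) and the 4 falls were (-1.88 to -1.40).

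Other families were mixed or fell modestly. All 6 members of miR-199 and miR-214, enriched in fibroblasts, were called lower (median -1.38), but 1 of them under every scaling, and miR-199a-3p went from 2091 to 3021 down to 1306 to 1870 normalized CPM (-0.64 ± 0.16, edgeR adjusted p = 0.0032; 0.93 with upper-quartile factors). In the clusters of miR-17-92 and its paralogs, which favour proliferation, 3 of 20 were called higher and 10 lower (median -0.62, near that of all miRNAs tested). miR-16-5p, which restrains the cell cycle, was called higher (1.28 ± 0.13, edgeR adjusted p = 5.4e-07; -0.96 with library totals) and miR-15b-5p, of the same seed, lower (-1.50 ± 0.14, edgeR adjusted p = 8.6e-08; 0.08 and not called with upper-quartile factors). In the miR-23, miR-27 and miR-24 clusters 4 of 11 were higher and 4 lower, shares not far from the 22.4% higher and 36.7% lower of all miRNAs tested. Of the 34 Sfmbt2 intron miRNAs tested of 80 listed, 2 were higher and 9 lower, both smaller shares than those of all miRNAs tested. Their median of -0.66 was near the -0.55 of all miRNAs tested, and 10 were at 3 counts or fewer in each adult library.

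A shared seed did not mean a shared change. Seeds were compared among the 688 miRNAs tested that have a RefSeq sequence, which leaves out miR-30b-5p and miR-30d-5p, among others. Of 14 seeds carried by 3 or more of them (60 miRNAs), the miR-29 seed was the sole seed with all such members called higher. All such members were called lower for 2, AGUGCAA (miR-130a-3p, miR-130b-3p and miR-301a-3p) and CCCUGAG. In 4 groups calls went both ways. These counts are with TMM: with upper-quartile factors miR-130a-3p, miR-301a-3p, miR-125a-5p and miR-125b-5p were called higher (0.49 to 0.95), and in the pair of falling seeds miR-130b-3p and miR-351-5p were lower under every scaling. Within CCCUGAG the sizes were far apart: miR-351-5p stood at -5.10, miR-125a-5p at -0.67 and miR-125b-5p at -0.62, and the last went from 6572, 7985 and 7370 to 5685, 4142 and 4407 normalized CPM. The miR-181 guide strands, of seed ACAUUCA, ran from -2.47 (miR-181c-5p) to 0.14 (miR-181b-5p).

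The balance between the arms of a hairpin shifted with age. In 139 pairs of arms both had at least 20 counts in all 6 libraries. The log2 ratio of the 5p to the 3p arm, which needs no scaling between libraries, did not overlap between the ages in 94 (67.6%). In 46 (33.1%) it also moved by at least 1 log2 unit, 19 toward the 5p arm and 27 toward the 3p arm. These are not counts of distinct hairpins. Antisense partners were kept, so that their matching counts enter with opposite signs, as for miR-299a (-1.06) and miR-299b (1.06). A guide strand made from 2 hairpins was paired with the passenger strand of each. For miR-181a-5p over miR-181a-2-3p the ratio was 5.52, 5.47 and 5.53 at P14 and 2.77, 2.78 and 2.73 at P90. Here miR-181a-5p fell (-0.59 ± 0.14, edgeR adjusted p = 0.002; 0.98 with upper-quartile factors) while miR-181a-2-3p went from 62.9, 72.5 and 71.0 to 326, 284 and 308 normalized CPM (2.15 ± 0.16, edgeR adjusted p = 5.4e-09; -0.08 with library totals). miR-181a-5p also comes from a hairpin on another chromosome, whose passenger strand, miR-181a-1-3p, fell (-1.97). With the GC trend removed the shift between the arms of Mir181a-2 was -3.81, beside -2.75 without.

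The shift with the widest span was that of miR-540, in the Dlk1-Dio3 region. Its ratio of the 5p to the 3p arm was -6.18, -6.37 and -6.22 at P14 and -2.11, -2.01 and -1.45 at P90, both arms being lower in the adult (-1.49 and -5.91). The ratio for miR-322 moved from -3.34 ± 0.32 to -0.65 ± 0.39, and that for miR-195a from 3.41 ± 0.13 to 5.56 ± 0.12 (SD, n = 3). With the GC trend removed these shifts of miR-540, miR-322 and miR-195a were 4.10, 2.07 and 1.06, beside 4.40, 2.69 and 2.15 without. Toward the 3p arm, miR-27a moved from -4.70 ± 0.18 to -7.16 ± 0.20 and miR-29c from -1.37 ± 0.52 to -3.73 ± 0.39, shifts of -2.46 and -2.36 that were -2.27 and -1.08 with the GC trend removed. In 11 of 160 pairs with both arms called, the calls were opposite. Among them was miR-106b, in an intron of the replication gene Mcm7. Its 5p arm was called higher (0.55 ± 0.18, edgeR adjusted p = 0.016) and its 3p arm lower (-0.98 ± 0.15, edgeR adjusted p = 2.8e-05). Those arms differ in GC content (42.9% and 63.6%), and with the trend removed they stood at 0.07 and 0.51.

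**Figure D5:**
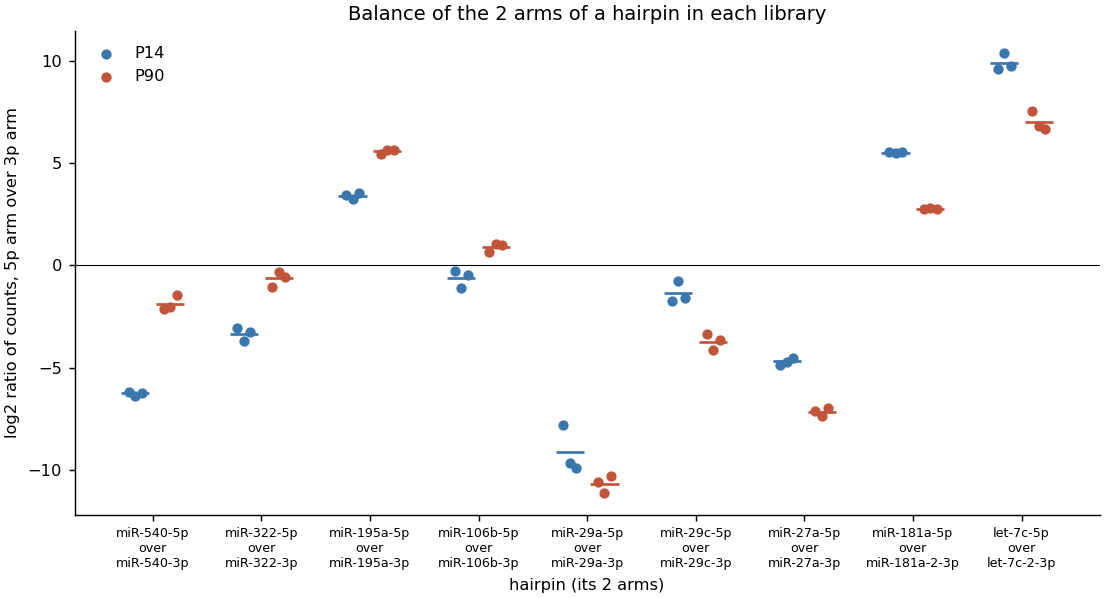
Points are the log2 ratio of counts of the 5p over the 3p arm of 9 hairpins in each of the 3 P14 and 3 P90 libraries, with bars at the means. miR-540 moves from -6.25 to -1.86 and miR-181a over miR-181a-2-3p from 5.51 to 2.76, and no hairpin shown has overlapping ages.

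Markers of other cell types in whole muscle moved unequally. Their counts of calls stand beside 22.4% higher and 36.7% lower of all miRNAs tested. No member of the vessel wall, immune and stromal or blood lists was called in the same direction under every scaling. For the vessel wall, 7 of 8 members tested were called higher (median 1.06, with -1.18 from library totals and 0.65 with the GC trend removed). Both arms of miR-143 and miR-145a, and miR-126a-5p, have no RefSeq sequence and got no GC adjustment. The 0.65 therefore mixes adjusted and unadjusted members, and the part of the GC trend in the unadjusted ones was not tested. The antisense miR-126a and miR-126b have nearly the same counts, and without the less abundant partners 5 of 6 were higher. With the GC trend removed miR-126a-3p was not called (0.24, edgeR adjusted p = 0.18; 0.47 without). The smooth muscle miRNA miR-143-3p went from 24502, 19496 and 23892 to 55722, 67043 and 71920 normalized CPM (1.52 ± 0.14, edgeR adjusted p = 9.3e-08; -0.73 with library totals). Of the immune and stromal list 4 of 6 were higher, with miR-21a-5p, raised in inflamed and fibrotic tissue, at 1501 to 2240 and then at 7193 to 10139 (2.17 ± 0.16, edgeR adjusted p = 8.1e-09; -0.08 with library totals). Of the blood list 7 of 9 were higher; its red-cell miRNA miR-451a stood at 144.3 to 215.8 and at 240.5 to 450.7 (0.87 ± 0.21, edgeR adjusted p = 0.0024; -0.23 with the GC trend removed and -1.34 with library totals), and the list median of 0.87 was 0.08 with the GC trend removed. The summed share of the blood list was 0.056% to 0.069% at P14 and 0.016% to 0.029% at P90.

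The remaining marker lists were low, and their counts of calls stand beside the same 22.4% higher and 36.7% lower of all miRNAs tested. No member of the epithelial list was called in the same direction under every scaling. Neuronal miRNAs took 0.335% to 0.371% of counts at P14 and 0.033% to 0.052% at P90, with 0 of 13 called higher and 3 lower. Most of these counts, 92.5% to 94.4% at P14 and 80.4% to 85.2% at P90, were those of miR-128-3p, which muscle also expresses and which went from 2027 to 2203 down to 900 to 1152 normalized CPM (-1.02 ± 0.13, edgeR adjusted p = 4.7e-06; 0.55 with upper-quartile factors). The neuron-typical miR-9-5p (0.76), miR-9-3p (0.72) and miR-124-3p (0.54) were not called. The liver miRNA miR-122-5p was at 5.62 to 8.28 and at 14.99 to 47.51 normalized CPM. Of the epithelial list 5 of 15 were higher and 1 lower, and its most abundant member miR-203-3p was far higher in the second P90 library (388.9) than in the others (137.5 and 120.9), and with the GC trend removed it was not called (0.87, edgeR adjusted p = 0.082). For cartilage, 2 of 4 members were called lower and 0 higher, with a list median of -0.96 (0.62 with upper-quartile factors). Those called were miR-455-3p (-1.57, means of 388.2 and 130.7 normalized CPM) and miR-455-5p (-1.45), neither of them under every scaling. The uncalled miR-140-3p stood at 1318 in the third P14 library and at 303 to 517 in the other 5 (-0.47 ± 0.72, edgeR adjusted p = 0.6, and 0.64 without that library). Of the satellite cell pair, miR-31-5p went from 22.9 to 33.0 down to 14.69 to 17.07 (-0.73 ± 0.23, edgeR adjusted p = 0.012; 0.85 with upper-quartile factors, -0.10 and not called with the GC trend removed), and miR-489-3p, kept in quiescent satellite cells, was at means of 0.370 and 0.157 and was not called. The part of these cells in the results above was not tested.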

How the data were processed

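The authors trimmed single-end small RNA reads (NEXTflex libraries of 200 ng total RNA) with cutadapt 1.18, aligned them to GRCm38 with Bowtie2 2.4.1 and counted them per mature miRNA of miRBase with featureCounts 2.0.1, and the values deposited are raw read counts per miRNA, with no molecular identifiers, so that an interval or a floor covers the counting error alone. The libraries came from separate mice. Counts were fitted with edgeR 4.0.16 (R 4.3.3; filterByExpr by age, TMM factors, quasi-likelihood F-test, 2-sided, 12 libraries sharing 1 spread, contrast P90 minus P14, Benjamini-Hochberg over 809 miRNAs). The fit was tested on simulated data with as many rises as falls and no GC trend, which cannot test the choice of scaling. SE is that of the log2 fold change, normalized CPM divides counts by TMM-scaled totals, and the GC trend was removed as a per-library offset. miRNAs with no RefSeq sequence got no GC adjustment, also where they enter a list median with the trend removed. Alternatives were RLE, upper-quartile and library-total scaling, other filters, DESeq2 1.42.0, the 6 libraries alone, a replicate block and leaving out each library. RefSeq (GRCm38.p6) gave positions and sequences. Members and lists were chosen with earlier results of these data known. Named were the up to 10 largest changes each way among calls stable under 4 scalings (mean of at least 50 normalized CPM, no overlap), 8 muscle miRNAs, the 5 most abundant at each age, the most abundant member of each of 30 lists and opposite arms of hairpins; miRNAs named beside these were chosen after their values were seen.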

Additional observations from a re-analysis of the deposited data

How the results depend on the processing

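The miRNAs higher at P90 (22.4% of those tested) and lower (36.7%) moved past 1.5-fold in number under 2 scalings, to 47.2% and 19.7% with upper-quartile factors and to 2.22% and 77.6% with library totals. Over all 18 alternatives the calls numbered 387 to 646. The log2 fold changes of named miRNAs changed sign in these cases. With library totals: miR-133a-3p -1.02, miR-133b-3p -1.34, miR-486a-5p -2.11, miR-143-3p -0.73, miR-26a-5p -0.89, let-7f-5p -0.95, miR-16-5p -0.96, miR-10b-5p -2.10, miR-221-3p -1.31, miR-34a-5p -1.92, miR-451a -1.34, miR-21a-5p -0.080, miR-203-3p -0.61, miR-365-3p -1.69, miR-122-5p -0.16, miR-181a-2-3p -0.082 and miR-106b-5p -1.69. With upper-quartile factors: miR-208b-3p 0.12, miR-499-5p 1.29, miR-30d-5p 1.43, miR-92a-3p 0.87, miR-181a-5p 0.98, miR-199a-3p 0.93, miR-24-3p 1.56, miR-125b-5p 0.95, miR-378a-3p 1.43, miR-31-5p 0.85, miR-128-3p 0.55, miR-140-3p 1.12 and miR-106b-3p 0.58. With RLE factors: miR-499-5p 0.10, miR-30d-5p 0.22, miR-24-3p 0.37 and miR-378a-3p 0.22. With the GC trend removed: let-7f-5p -0.21, miR-92a-3p 0.17, miR-24-3p 0.62, miR-10b-5p -0.27, miR-451a -0.23, miR-365-3p -0.96, miR-140-3p 0.37 and miR-106b-3p 0.51; with the replicate block added, -0.21, 0.17, 0.62, -0.27, -0.22, -0.97, 0.47 and 0.51. With the 6 libraries alone: miR-499-5p 0.070, miR-30d-5p 0.16, miR-24-3p 0.31 and miR-378a-3p 0.16; with at least 100 counts in 3 libraries, miR-30d-5p 0.063, miR-24-3p 0.21 and miR-378a-3p 0.068. miR-24-3p, at 0.00 in the fit reported, stood at 0.019 without the 5 most abundant miRNAs, at 0.088 with no filter and at 0.019 without antisense partners. The cause was not tested.

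Leaving out 1 library changed the sign of 4 uncalled miRNAs: miR-24-3p (-0.055 to 0.10), miR-140-3p (-0.80 to 0.64, the highest without the third P14 library), miR-499-5p (-0.75 to 0.17, the highest without the first P90 library) and miR-486a-5p (-0.026 to 0.24, the lowest without the first P90 library). The replicate block gave 460 calls, 172 higher and 288 lower. Numbers shared by P14 and P90 libraries did not pair them: deviations from the age means correlated at -0.046, 0.003 and -0.010.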
